A study of Mus musculus with 24 samples.

Results

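The regions described here are 17102 bins of 1 kb at the ends of protein-coding genes that carried H3K4me2 but not KDM6A in mouse small cell lung cancer cells. They were selected on the peak lists of the control lines. A bin of chromosomes 1 to 19 was a member where merged peaks covered at least 50% of it in both control lines for H3K4me2, under 50% in both control lines for KDM6A and for H3K27me3, and where it lay within 2.5 kb of either end of a protein-coding gene. These 17102 bins are part of 385036 autosomal bins marked by at least 1 of the 14 peak lists, and of 66086 with H3K4me2 in both control lines. Of those 66086, 33982 lay near a gene end, and 2487 of these carried H3K27me3 in a control line and were set aside. The H3K4me2, KDM6A and H3K27me3 values of the control lines therefore chose the bins and are given only as a description.

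The study profiled chromatin by ChIP-seq in 4 early-passage lines from tumours of the RPP mouse model, which engineers the tumour suppressors Rb1, Trp53 and Rbl2. The sgControl lines 159-1 and 1014 carried a control guide RNA and are called control lines. The sgKdm6a lines 236L and 236R carried a guide RNA that targets Kdm6a and are called mutant lines, and values are given in the order 159-1, 1014, 236L and 236R unless lines are named. All 4 lines thus share the RPP background, were grown in HITES medium with serum, received no treatment and were collected 24 h after plating. Each line has a library for H3K4me1, H3K4me2 and H3K27me3, and the control lines alone have one for KDM6A, with an added crosslinking step in 2 mM disuccinimidyl glutarate for KDM6A. Each line is 1 culture, the labels do not say whether 236L and 236R stem from separate animals, and line and genotype cannot be told apart. The labels used here state neither the age of the mice nor what drives recombination.

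H3K4me2 is placed by the MLL/COMPASS methyltransferases and marks promoters and enhancers of active genes. H3K4me1 is most abundant at enhancers and on the shoulders of promoters, where it gives way to more highly methylated H3K4 at the start itself. KDM6A, also called UTX, removes methyl groups from H3K27, the mark of the Polycomb complex PRC2, and is a subunit of the MLL3 and MLL4 complexes that monomethylate H3K4 at enhancers.

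Bins with a gene start differed between classes in their density of CpG dinucleotides, the substrate of DNA methylation. Promoters are shown for 5 genes whose start lay in a member bin and that had no KDM6A-marked bin at either end, and for 1 gene with a KDM6A-bound start for comparison. Each is the 250 bases before the start, 5′ to 3′ on the gene's strand, from RefSeq (GRCm38.p6), with CpG dinucleotides in capitals. Mrpl49 (chr19:6057756-6058005, minus strand), a mitochondrial ribosomal protein, had the widest excess of H3K4me1 in the mutant lines among genes with at least 2 member bins and no KDM6A-marked bin, predicted genes left out. Tut1 (chr19:8953582-8953831, plus strand), the uridylyltransferase of U6 small nuclear RNA, and Zrsr1 (chr11:22971755-22972004, plus strand), an imprinted retrogene related to splicing factors, are among the genes with the most member bins. Rps27 (chr3:90213649-90213898, minus strand) was the only cytosolic ribosomal protein gene of its list with member bins and no KDM6A-marked bin. Gper1 (chr5:139422929-139423178, plus strand), a membrane estrogen receptor, had the widest shortfall of H3K4me2 in those lines among the same genes, and Ndufv2 (chr17:66101560-66101809, minus strand), a core subunit of respiratory complex I, had a KDM6A-bound start.
Mrpl49: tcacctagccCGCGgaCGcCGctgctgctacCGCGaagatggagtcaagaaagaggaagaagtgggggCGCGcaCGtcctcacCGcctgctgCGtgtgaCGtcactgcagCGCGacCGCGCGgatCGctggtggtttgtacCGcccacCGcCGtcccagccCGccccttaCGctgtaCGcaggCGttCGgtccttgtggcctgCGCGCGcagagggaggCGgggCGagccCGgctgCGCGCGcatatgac
Tut1: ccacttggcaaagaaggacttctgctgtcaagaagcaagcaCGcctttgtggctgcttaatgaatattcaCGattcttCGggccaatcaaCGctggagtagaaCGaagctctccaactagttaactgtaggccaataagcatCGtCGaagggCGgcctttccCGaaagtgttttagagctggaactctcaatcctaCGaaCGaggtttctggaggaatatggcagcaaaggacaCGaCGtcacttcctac
Zrsr1: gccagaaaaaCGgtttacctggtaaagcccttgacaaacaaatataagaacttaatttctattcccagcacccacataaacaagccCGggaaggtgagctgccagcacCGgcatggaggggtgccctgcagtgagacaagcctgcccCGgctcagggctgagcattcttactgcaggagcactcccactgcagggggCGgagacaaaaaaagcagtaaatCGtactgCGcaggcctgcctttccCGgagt
Rps27: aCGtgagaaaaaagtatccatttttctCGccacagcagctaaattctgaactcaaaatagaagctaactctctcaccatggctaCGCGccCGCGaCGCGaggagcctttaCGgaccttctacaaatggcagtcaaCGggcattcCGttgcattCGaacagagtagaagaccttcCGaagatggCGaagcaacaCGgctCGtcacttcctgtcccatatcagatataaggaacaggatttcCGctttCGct
Gper1: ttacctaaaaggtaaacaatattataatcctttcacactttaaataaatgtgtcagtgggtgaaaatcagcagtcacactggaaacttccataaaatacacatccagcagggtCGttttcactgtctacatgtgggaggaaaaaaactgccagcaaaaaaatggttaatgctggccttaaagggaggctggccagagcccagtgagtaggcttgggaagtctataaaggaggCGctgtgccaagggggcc
Ndufv2: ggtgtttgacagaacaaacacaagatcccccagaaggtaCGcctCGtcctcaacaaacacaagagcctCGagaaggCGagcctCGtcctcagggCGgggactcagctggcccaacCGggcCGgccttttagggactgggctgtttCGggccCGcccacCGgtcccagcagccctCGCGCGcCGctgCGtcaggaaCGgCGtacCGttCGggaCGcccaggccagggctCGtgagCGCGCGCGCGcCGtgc
In these 250 bases Mrpl49 held 35 CpGs, Tut1 13, Zrsr1 8, Rps27 18 and Gper1 2, against 28 at Ndufv2. Gper1 alone among the 6 held the TATA box letters TATAAA in its 300-base window, and Mrpl49, Tut1, Zrsr1, Gper1 and Ndufv2 held the GC box letters GGGCGG on either strand.

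The RefSeq table lists 20085 promoters of autosomal protein-coding genes in the window from 250 bases before to 50 after the start, and 2747 of them started in a member bin. It matched 16457 of 20154 genes (81.7%) outside chromosome 18, which was left out, and 82.0% of the 2183 genes there with member bins and no KDM6A-marked bin. Promoters that started in member bins had a median GC content of 58.0% and a median CpG observed-to-expected ratio of 0.682 (quartiles 0.492 and 0.829), with 17 CpGs. The 4929 promoters in KDM6A-bound bins had 65.3%, 0.852 (quartiles 0.720 and 0.974) and 26 CpGs. The 7308 promoters without H3K4me2 in either control line had 47.3%, 0.187 and 3 CpGs. Promoters in member bins thus lay between both other classes in CpG content. The quartile range of their ratio overlapped that of the KDM6A-bound class in part, and their median lay below its lower quartile. All 20085 promoters had medians of 57.0%, 0.586 and 14 CpGs, a little below the member values.

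Motif letters followed the same order for the GC box. GGGCGG was found in 59.4% of promoters in member bins, 75.5% of those in KDM6A-bound bins, 12.2% of those without H3K4me2 and 47.0% of all. TATAAA was found in 7.10, 5.15, 24.2 and 12.7% of the same 4 sets, and the CCAAT box letters CCAAT in 44.3, 33.8, 39.3 and 38.1%. The ETS-type letters CCGGAAG stood in 19.7% of member and 19.9% of KDM6A-bound promoters, against 11.9% of all. Of 4 further motifs, GCATGCGC stood in 5.10% of member, 6.39% of KDM6A-bound and 3.55% of all promoters, CACGTG in 9.21, 11.1 and 7.89%, TGACGTCA in 3.60, 3.19 and 2.30%, and AAGATGG in 6.63, 7.12 and 6.29%. Both strands were searched, and none of the 8 motifs contains another. A start of the opposite strand lay within 1 kb upstream, a divergent pair, at 283 of the 2747 member promoters (10.3%), at 17.3% of KDM6A-bound and at 8.21% of all promoters. One such pair is Mrpl50 and the zinc finger gene Zfp189, whose 300-base windows overlap (chr4:49521034-49521333 and chr4:49520926-49521225), so their values below are largely the same bases.

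Absence of KDM6A here means cover under 50% of a bin, which held both for bins that KDM6A peaks touched and for bins without any KDM6A base. KDM6A peaks touched 9045 of the 17102 members (52.9%) without covering 50% of a bin in either control line, and 8057 (47.1%) held no KDM6A base. A KDM6A-marked bin was the direct neighbour of 10036 members (58.7%), and 2503 (14.6%) lay more than 20 bins from one. The members formed 12809 runs, of which 9280 were single bins, and the longest was 6 bins. Most members therefore lay beside a bin marked by KDM6A in at least 1 control line, with a smaller set away from KDM6A. Members just inside the KDM6A limit, with at least 400 and under 500 bp of KDM6A in the higher control line, numbered 2115 and carried H3K4me1 in 33.5, 30.7, 40.7 and 46.1% of bins in 159-1, 1014, 236L and 236R. The 2136 bins just outside it, with at least 500 and under 600 bp, carried H3K4me1 in 31.2, 26.5, 37.0 and 42.7%. The members just inside the H3K4me2 limit (at least 500 and under 600 bp in the lower control line, 2116 bins) carried H3K4me2 in 57.8% of bins in 236L and 65.3% in 236R, against 41.5 and 45.8% of the 2313 bins just outside it.

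H3K4me1 was not used to choose the bins. It marked 39.3% of the 17102 members in 159-1, 37.6% in 1014, 47.9% in 236L and 52.5% in 236R. Both mutant lines lay above both control lines, with means of 38.4 ± 1.25% (SD, n = 2) in the control lines and 50.2 ± 3.19% (SD, n = 2) in the mutant lines. The difference of 11.8 percentage points had an exact two-sided permutation p of 0.333, the smallest that 2 lines against 2 can give, so no such comparison can pass 0.05 here. Over all bins near gene ends the shares were 10.9, 11.5, 15.7 and 13.6%, a difference of 3.40 points between lower means of 11.2 and 14.6%. KDM6A-bound gene-end bins had means of 17.6% in the control and 31.4% in the mutant lines, a difference of 13.8 points. A higher share in the mutant lines was therefore not particular to the members among gene-end bins. In the 18842 bins away from gene ends without KDM6A the direction was the reverse. H3K4me1 marked 68.1, 69.8, 25.8 and 64.5% of them, with 236L far below 236R. Without 236L the difference in the members was 14.02 points, and without 236R it was 9.51. In the 2253 members without a KDM6A base in the bin or in a neighbouring bin it was 2.93 points, and the groups overlapped there, with 45.1 and 46.2% in the control lines and 44.3 and 52.9% in 236L and 236R.

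**Figure D1:**
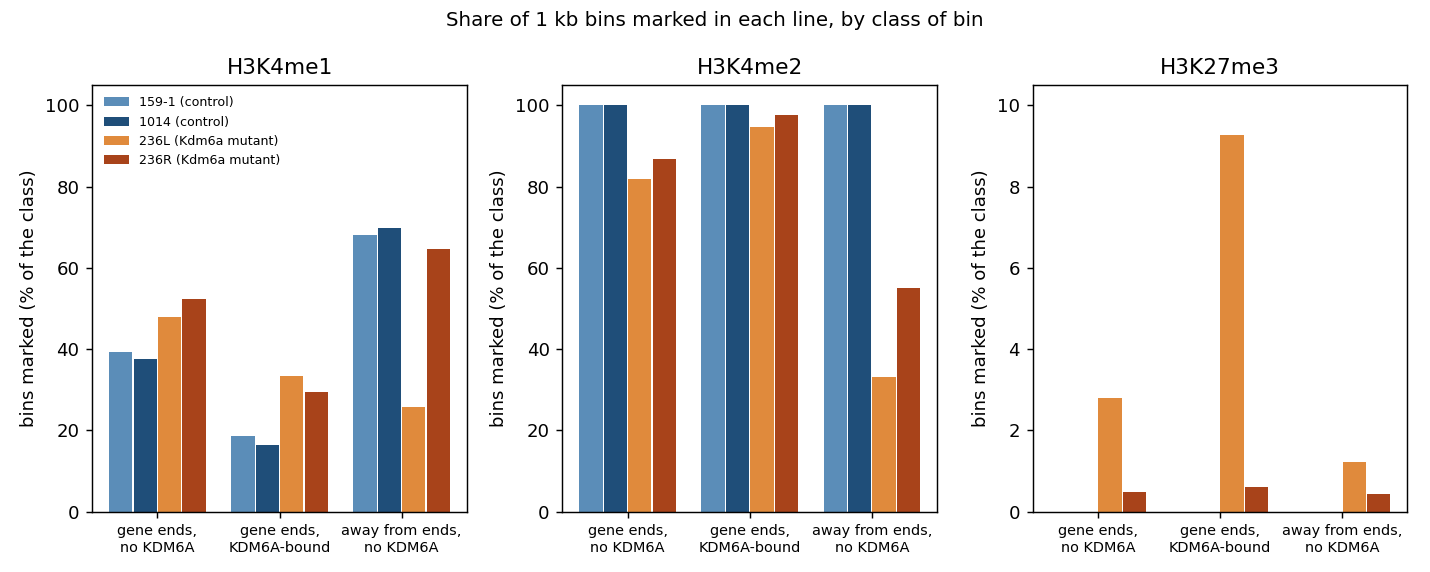
Share of 1 kb bins marked by H3K4me1, H3K4me2 and H3K27me3 (vertical axes, % of the class; the H3K27me3 axis is shorter) in each of the 4 lines, for gene-end bins without KDM6A (17102), KDM6A-bound gene-end bins (8598) and bins away from gene ends without KDM6A (18842). H3K4me1 was higher in both mutant lines in both gene-end classes, and H3K4me2 was kept in 81.7 and 86.9% of the gene-end bins without KDM6A in 236L and 236R. The control bars for H3K4me2 (100%) and H3K27me3 (0%) follow from the selection.

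Single bins showed the same direction. H3K4me1 covered at least 50% of 11839 members in at least 1 line, and 3161 of these carried it in all 4 lines. It was present in both mutant lines and neither control line in 1390, or 11.7% of the 11839. The background for this pattern was 7.98% of the marked bins near gene ends and 2.89% of all marked autosomal bins. The reverse pattern, both control lines and neither mutant line, held for 290 members (2.45%), against 5.6% of the marked bins near gene ends and 10.2% of all marked bins. The KDM6A-bound gene ends had 13.1% of their 3993 marked bins in the mutant-only pattern and 0.851% in the reverse one. Of the 11839 marked members, 236L alone marked 1676 and 236R alone 903. The background for these patterns was 27.2 and 8.95% of the marked bins near gene ends, and 28.1 and 7.95% of all marked bins. Leaving out 236R moved the mutant-only and control-only member counts to 3066 and 1869. The background was not recomputed without 236R, so nothing is read from that move.

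Members carried more H3K4me1 than KDM6A-bound gene ends in every line. The 8598 gene-end bins with KDM6A and H3K4me2 in both control lines and H3K27me3 in neither had H3K4me1 in 18.7, 16.4, 33.4 and 29.5% of bins in 159-1, 1014, 236L and 236R. The difference, members minus KDM6A-bound bins, was 20.6, 21.2, 14.6 and 23.0 points, with a mean of 19.8 ± 3.65 (SD, n = 4 lines). The exact two-sided sign-flip permutation over the 4 lines gave p = 0.13, the smallest it can give. This difference overlapped between the genotypes (18.8 points in the mutant lines against 20.9 in the control lines, exact permutation p = 1). It was 10.1 points where a mark had to cover 75% of a bin, and 13.5 points with peaks of −log10 q of at least 3.

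The classes also differed in position. Of the 16649 members on chromosomes of the promoter table, 14.9% held a listed start, 40.3% lay within 1 kb of one, 21.6% at 1 to 2.5 kb and 23.2% farther from every listed start. KDM6A-bound bins held a start in 48.6% of cases. In members that held a start H3K4me1 marked 20.7, 19.3, 32.3 and 34.0% of bins in 159-1, 1014, 236L and 236R, and at 1 to 2.5 kb it marked 51.6, 51.5, 59.7 and 62.8%. KDM6A-bound bins that held a start had 7.81, 6.58, 23.7 and 15.9%. With bins that hold a start alone, a comparison chosen after the data were seen, members exceeded KDM6A-bound bins by 13.1 points on average.

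CpG content at the start was ordered the same way. Promoters of both classes were split at CpG ratios of 0.701 and 0.888. In the lowest CpG class, which held 52.7% of member and 22.5% of KDM6A-bound promoters, H3K4me1 marked the member starts in 29.4, 27.7, 37.6 and 42.4% of cases in the 4 lines and the KDM6A-bound starts in 16.0, 13.4, 33.8 and 28.0%. In the highest class it marked 7.44, 6.20, 19.4 and 15.9% of member and 3.08, 2.60, 15.4 and 8.24% of KDM6A-bound starts. The member value was above the KDM6A-bound value in each line and in both of these classes. Both mutant lines were above both control lines in each.

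**Figure D2:**
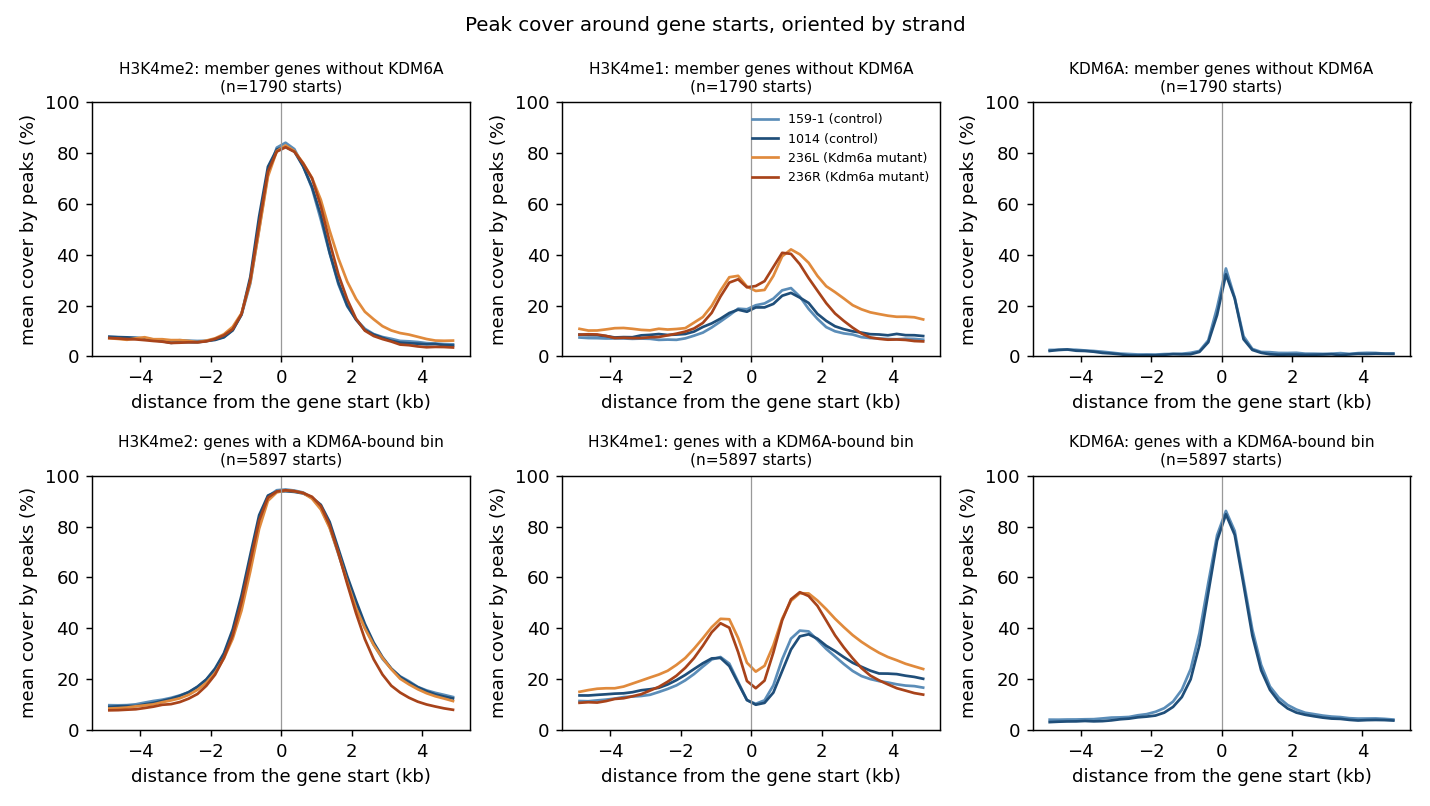
Mean share of bases covered by peaks (%) in steps of 250 bp against distance from the gene start (kb, oriented by strand) for H3K4me2, H3K4me1 and KDM6A, for 1790 genes with member bins and no KDM6A-marked bin (upper row) and 5897 genes with a KDM6A-bound bin (lower row); lines are the 4 cell lines. Cover by KDM6A peaks within 250 bp of the start was 26.9 and 24.3% in the upper row and 81.4 and 79.6% in the lower.

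Around the starts, genes with member bins and no KDM6A-marked bin carried a narrower H3K4me2 domain than genes with a KDM6A-bound bin. Within 250 bp of the start H3K4me2 covered 83.0, 81.8, 81.7 and 81.3% of bases in the 4 lines at the 1790 genes with member bins and without a KDM6A-marked bin, against 93.8 to 94.4% at the 5897 genes with a KDM6A-bound bin. At 1 to 2 kb downstream it covered 35.6, 36.3, 44.7 and 39.7% at the former and 73.5 to 75.5% at the latter. H3K4me1 there covered 20.97, 21.5, 37.7 and 33.3% at genes without a KDM6A-marked bin and 37.3, 35.5, 52.3 and 51.8% at genes with one. The 2 mutant lines lay above the 2 control lines in both sets downstream of the start. These genes were chosen through KDM6A and H3K4me2, so the contrast of those marks between the sets is a description. H3K4me1 upstream, at 1 to 2 kb, covered 9.01, 10.8, 15.0 and 12.8% in the first set.

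Distance to KDM6A ordered the H3K4me1 of the members unevenly. The 10036 bins next to a KDM6A-marked bin carried H3K4me1 in 38.3, 35.7, 49.5 and 53.7% of cases in 159-1, 1014, 236L and 236R. Bins 2 away from KDM6A had 50.7, 51.4, 60.8 and 60.6%. The 826 bins at 3 to 5 bins had 55.2, 56.4, 46.0 and 58.5%, and there the 2 groups overlapped, as they did at 6 to 20 bins (46.8, 44.3, 45.6 and 56.1%). In the 2503 bins more than 20 bins from KDM6A the shares were lowest, 23.7 and 22.5% in the control lines and 32.6 and 36.3% in the mutant lines, and the groups did not overlap.

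**Figure D3:**
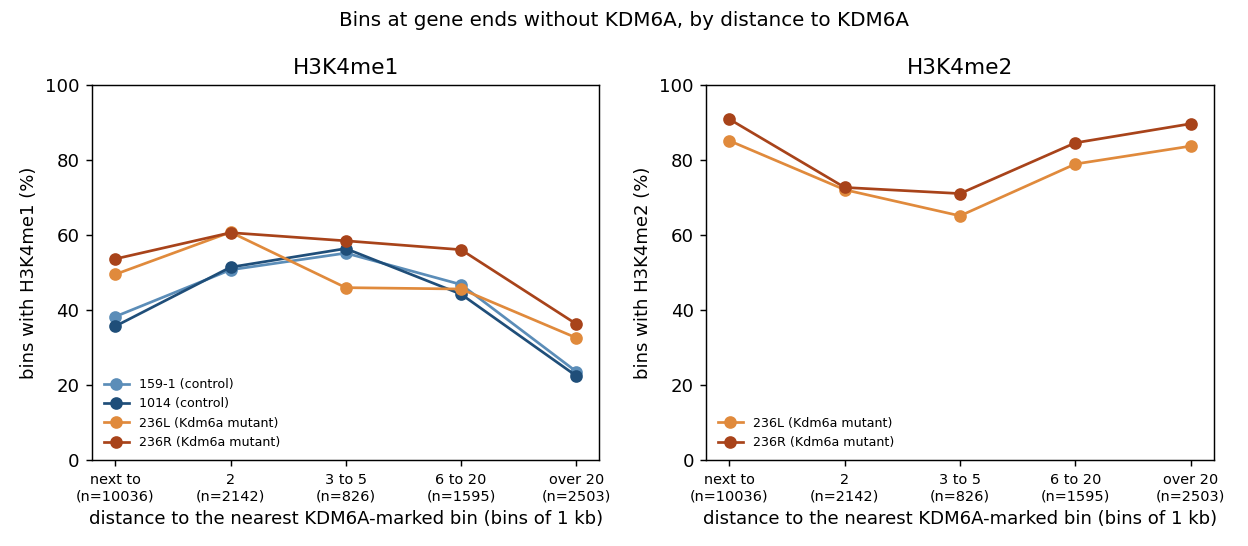
Share of member bins (%) with H3K4me1 in the 4 lines (left) and with H3K4me2 in the 2 mutant lines (right) by distance to the nearest bin marked by KDM6A in a control line, in bins of 1 kb; n is the number of bins at each distance. H3K4me1 was highest 2 to 5 bins from KDM6A in the control lines, where H3K4me2 was kept least often (65.1 to 72.7% in the mutant lines).

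H3K4me2 was kept in most members. It marked 81.7% of them in 236L and 86.9% in 236R, with 13105 (76.6%) kept in both and 1372 (8.02%) in neither. Of all 66086 bins with H3K4me2 in both control lines, 19.6% had it in neither mutant line; the bins were chosen on the control values, so nothing is read from this count. KDM6A-bound bins kept H3K4me2 in 94.7 and 97.7% and were without it in both mutant lines in 1.90%, and the 18842 bins away from gene ends kept it in 33.0 and 55.0%. Members therefore lay 13.0 points (236L) and 10.9 points (236R) below KDM6A-bound bins (mean −11.9 points, exact sign-flip permutation p = 0.5, the smallest 2 lines can give).

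Peak width in the control lines moved with this gap. Peaks of both control lines covered 48.5% of members wholly and 90.5% of KDM6A-bound bins, and the wholly covered members kept H3K4me2 in 90.6 and 93.9% in 236L and 236R, against 96.4 and 99.0% of wholly covered KDM6A-bound bins. With wholly covered bins alone, an alternative chosen after the data were seen, the mean gap was −5.41 points, and with bins that hold a start −4.56. In the 2253 members with no KDM6A base within 1 kb of the bin it was −25.9. The share kept did not fall steadily with distance, however. The 2503 members more than 20 bins from a KDM6A-marked bin kept H3K4me2 in 83.7% in 236L and 89.7% in 236R. The cause of these gaps was not tested.

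Members without H3K4me2 in both mutant lines were richer in H3K4me1 in the control lines. H3K4me1 marked 68.5, 71.7, 25.4 and 54.0% of these 1372 members in the 4 lines, highest in both control lines. In the 13105 members kept in both mutant lines it marked 33.4, 30.8, 52.1 and 50.5%. They had weaker control H3K4me2 peaks, with a median rank percentile of 74.0 against 83.5 among the peaks of a list. The sets were split by H3K4me2 of the mutant lines, so their H3K4me1 values are a description.

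H3K27me3 appeared in few members. It marked 2.79% of members in 236L and 0.485% in 236R, with 444 bins in 236L alone, 50 in 236R alone and 33 (0.193%) in both. Of 182699 bins near gene ends without H3K27me3 in a control line, 0.119% carried it in both mutant lines; the rule used the control values of this mark, so nothing is read from this count. KDM6A-bound bins carried it in 9.26% in 236L and 0.616% in 236R. In the 477 members with H3K27me3 in 236L, H3K4me1 marked 73.0 and 68.6% in 159-1 and 1014, 39.6% in 236L and 84.3% in 236R, and H3K4me2 was kept in 66.2% in 236L against 89.1% in 236R. The H3K27me3 list of 236L was the shortest of the 4, with 10039 peaks against 25230 to 52080.

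Among 20665 autosomal protein-coding genes, 11147 had a member bin within 2.5 kb of an end. No bin marked by KDM6A lay at either end of 2246 of them (20.1%), and 8901 had one. The length of H3K4me1 peaks at the ends of a gene was called higher where both mutant lines exceeded both control lines by at least 1 kb, and lower in the reverse case. Of the 2246 genes, 168 (7.48%) were higher and 70 (3.12%) lower. The background over all 20665 genes was 7.62% higher and 2.87% lower, and over the 13885 genes with H3K4me2 in both control lines at an end 10.4 and 3.51%. The share of higher genes among the 2246 was thus near that of all genes and below that of genes with H3K4me2, whereas 1044 (11.7%) of the 8901 genes with member and KDM6A-marked bins were higher and 299 (3.36%) lower. The count of 168 became 34 where no KDM6A base was allowed within 1 kb of a bin, and 698 when 236R was left out. The share over all genes was not recomputed at these settings, so nothing is read from these counts. The windows of neighbouring genes overlap, so 1 change can count for several genes.

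The genes with the most member bins and no KDM6A-marked bin held 5 or 6 each. They were the adaptor Shc4 and the peroxisomal membrane protein Pxmp4 with 6, and Tut1, the Hedgehog ligand Dhh, Tmub1, Scaf1, Zrsr1, Mkln1, Ccdc61 and the iron-sulfur assembly factor Ciao3 with 5. Their member bins were all kept in both mutant lines at Tut1, Scaf1, Zrsr1, Ccdc61 and Ciao3. At Ciao3 (chr17:25773776-25783332) H3K4me1 covered 5.09, 3.94, 6.04 and 6.38 kb. At Dhh (chr15:98881615-98898562) it covered 3.94, 4.11, 5.39 and 5.59 kb, and H3K27me3 covered 2.07 kb in 236L and none in the other lines. These genes were not free of KDM6A peaks. In 159-1 and 1014 KDM6A covered 0.732 and 1.27 kb at the ends of Tut1, 0.701 and 1.40 kb at Dhh and 1.28 and 1.11 kb at Tmub1. Shc4 had 0.681 and 0 kb, and Pxmp4 0 and 0.804 kb. The medians over genes with H3K4me2 in both control lines at an end were 1.05 and 0.939 kb.

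The genes with the widest H3K4me1 separation were chosen by that separation, so their values are a description. At Mrpl49 (chr19:6053630-6057755) H3K4me1 covered 0, 1.19, 7.37 and 5.01 kb, while H3K4me2 covered 3.87, 2.77, 4.06 and 3.95 kb. At Tut1 (chr19:8953832-8966210) H3K4me1 covered 0, 2.26, 6.16 and 5.67 kb in the same order, with H3K4me2 at 6.76, 4.97, 6.45 and 6.58 kb. Zrsr1 (chr11:22972005-22976496) had no H3K4me1 peak at its ends in either control line, 4.67 kb in 236L and 3.37 kb in 236R. Both mutant lines were thus high and H3K4me2 stood at all 3 genes in every line. Cdca3, a regulator of entry into mitosis, had H3K4me1 lengths of 2.499, 2.62, 6.99 and 5.42 kb, and the Rap GTPase activator Sipa1 had 0.310, 2.56, 5.78 and 5.35 kb.

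In the direction of less H3K4me1, the water channel Aqp6 (chr15:99598468-99605478) had 6.52, 8.07, 1.504 and 2.13 kb. H3K27me3 covered 5.32 kb at Aqp6 in 236L and 0.059 kb in 236R. The galectin of gut epithelium Lgals4 (chr7:28833122-28841710) had 3.84 and 3.89 kb in the control lines but none in either mutant line, and its H3K4me2 (1.31 and 1.36 kb) was absent there too. The Golgi calcium-binding protein Nucb1 had 5.90, 6.97, 2.79 and 2.87 kb, and Pxmp4 had 5.83, 5.90, 2.85 and 2.45 kb of H3K4me1. Rps23rg1 had H3K4me1 lengths of 3.21, 4.13, 0 and 0 kb. Both control lines were high at each of these 5 genes.

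**Figure D4:**
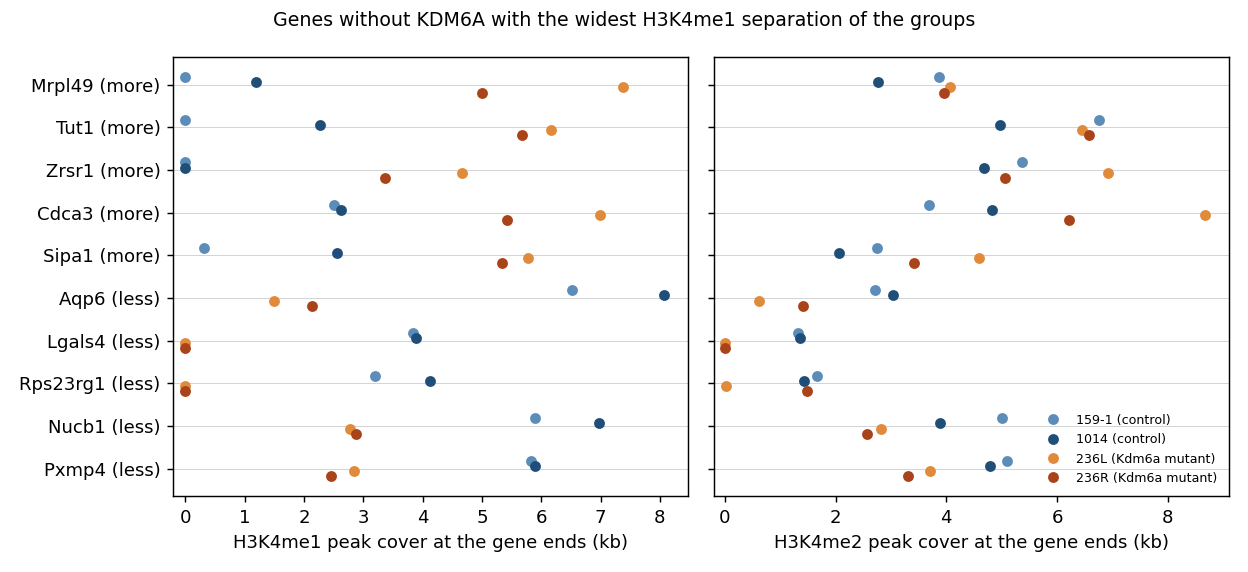
H3K4me1 (left) and H3K4me2 (right) peak cover within 2.5 kb of the gene ends (kb) in each of the 4 lines for the 5 genes with the widest separation of the groups in each direction of H3K4me1, among genes with at least 2 member bins and no KDM6A-marked bin; each point is 1 line. The 5 upper genes have both mutant lines to the right of both control lines for H3K4me1, and the 5 lower genes the reverse.

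The widest H3K4me2 shortfalls were likewise picked by their size. At Gper1 (chr5:139423150-139427800) H3K4me2 covered 3.87, 3.31, 0.551 and 0.847 kb. KDM6A peaks covered 0.294 kb at its ends in 159-1 and 1.48 kb in 1014, without marking a bin. H3K4me1 stayed at 6.28 kb there in 236R, against 8.25 and 9.65 kb in the control lines, and was at 0 kb in 236L. The Arl2-binding protein Arl2bp had H3K4me2 of 4.17, 4.29, 1.93 and 2.33 kb, and the N-terminal methyltransferase Mettl11b 3.23, 3.47, 0.799 and 1.78 kb. The genes with member bins marked by H3K27me3 in both mutant lines included the muscle tropomyosin Tpm2, the GABA receptor subunit Gabrd and the Rap GTPase activator Rap1gap2, with 1 such bin each. At Gabrd H3K27me3 covered 0, 2.01, 4.94 and 3.15 kb.

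Housekeeping gene lists held member bins at most of their genes. Cytosolic ribosomal protein genes, which encode the proteins of the 80S ribosome, had a member bin at 75 of 81 genes, but only Rps27 had no KDM6A-marked bin, and 59 had a KDM6A-bound bin, or 75.6% of the 78 genes with H3K4me2 in both control lines. Of all 20665 genes 53.9% had a member bin. Of the 13885 genes with H3K4me2 in both control lines 80.3% had a member bin, 16.2% had one and no KDM6A-marked bin, and 52.9% had a KDM6A-bound bin. Mitochondrial ribosomal proteins had a member bin at 73 of 78 genes and no KDM6A-marked bin at 19, and NADH dehydrogenase (complex I) genes at 44 of 47 and 11. Zfp zinc finger genes had a member bin at 306 of 388 genes and no KDM6A-marked bin at 122 of these (35.6% of the 343 with H3K4me2). Of the other lists, member bins stood at 33 of 38 proteasome, 18 of 20 tRNA synthetase, 43 of 45 spliceosome, 64 of 73 histone and 20 of 20 replication origin genes, with no KDM6A-marked bin at 5, 3, 8, 5 and 4 of them. They stood at 9 of 15 lung epithelial, 2 of 13 immune and 2 of 11 fibroblast and endothelial genes. Olfactory receptors, silent outside the nose, had one at 5 of 1104. The lists were chosen with earlier results known, and the counts are descriptions of these peak lists.

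At Rps27 (chr3:90212667-90213648) H3K4me2 covered 3.42, 3.36, 3.85 and 2.64 kb, while the H3K4me1 lengths were 1.15, 1.03, 2.46 and 1.10 kb. Only 236L stood apart there. At Mrpl50 (chr4:49512597-49521083) H3K4me1 covered 0.782, 0.942, 2.49 and 2.21 kb, while H3K4me2 was between 4.14 and 4.48 kb in all 4. The proteasome ATPase Psmc5 had 1.76, 1.47, 3.06 and 2.76 kb of H3K4me1, and the complex I subunit Ndufv3 0.559, 0.788, 1.89 and 2.89 kb. At these 3 genes both mutant lines were above both control lines. The replication licensing factor Cdc6 had less in the mutant lines, with 5.32, 5.25, 2.97 and 2.44 kb, and the helicase subunit Mcm3 had 0.637, 0, 1.13 and 0.497 kb with overlapping groups.

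H3K4me1 at the ends was called higher in both mutant lines at 13 of 81 cytosolic ribosomal, 12 of 78 mitochondrial ribosomal, 10 of 47 NADH dehydrogenase, 9 of 73 histone, 7 of 45 spliceosome and 36 of 388 Zfp genes, and lower at 0, 1, 0, 0, 1 and 7. It was called higher at 2 of 38 proteasome genes, at 0 of 20 tRNA synthetase genes and at 0 of 20 replication origin genes, and lower at 0, 0 and 1. The background was 7.62% higher and 2.87% lower over all genes, and 10.4 and 3.51% over the genes with H3K4me2. The median H3K4me1 length of the mitochondrial ribosomal genes was 0.861, 0.687, 2.12 and 1.59 kb in 159-1, 1014, 236L and 236R, against 1.22, 1.21, 1.98 and 1.78 kb for genes with H3K4me2 at an end. For the cytosolic ribosomal genes it was 1.98, 2.11, 3.46 and 2.51 kb, and for the Zfp genes 0.330, 0.263, 1.13 and 0.854 kb. The medians of the mutant lines were above those of the control lines in these lists and over all genes with H3K4me2, and nothing particular to a list is read from these counts. Of the 11 neuroendocrine genes 0 were called in either direction. Of the 15 lung epithelial genes 0 were higher and 4 lower, beside the background of 2.87% lower over all genes and 3.51% over those with H3K4me2.

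**Figure D5:**
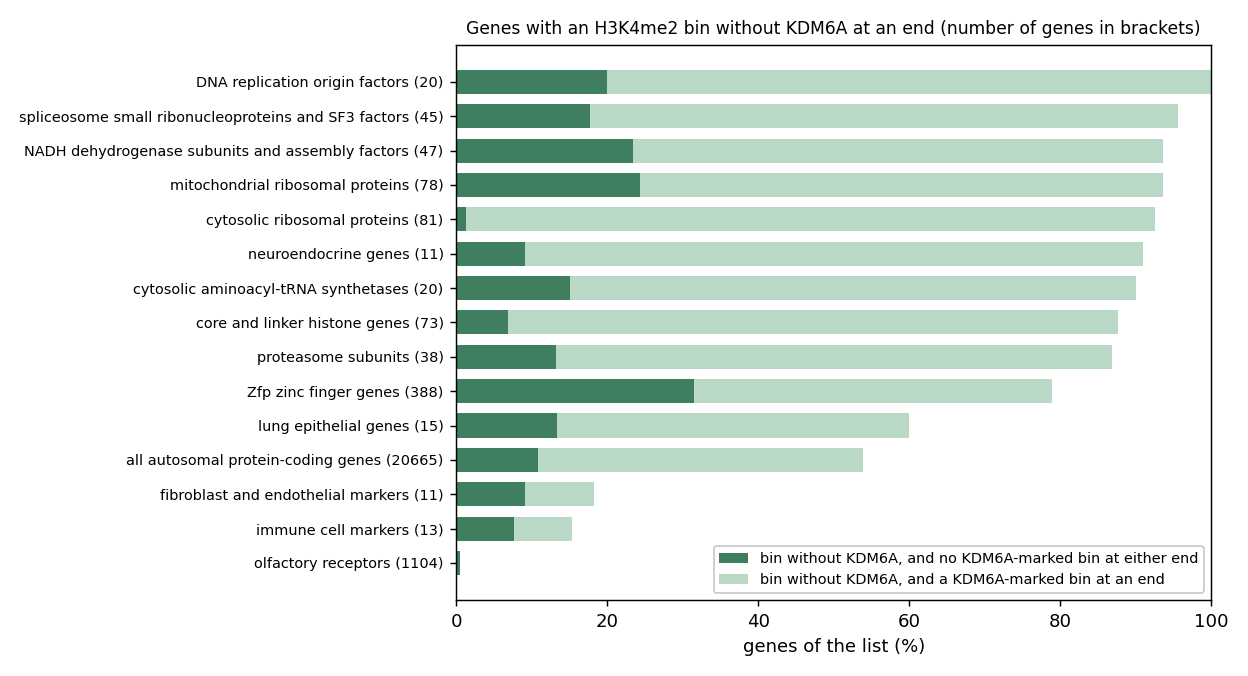
Share of the genes of each list (%) with an H3K4me2 bin without KDM6A at an end, split into genes without any KDM6A-marked bin at either end (dark) and with one (light); the number of genes is in brackets. Cytosolic ribosomal proteins are nearly all light (1 gene of 75 dark), and Zfp zinc finger genes have the largest dark share among the lists drawn (122 of 388).

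Markers checked the labelled cell type. H3K4me2 covered more than 1 kb at the ends of 10 of 11 neuroendocrine genes in each line (Syp, on the X chromosome, was not counted). Their summed H3K4me2 was 49.98, 52.8, 34.7 and 50.9 kb, and 236L was the low line. Scg3, a granin of secretory granules, was the only one of these with member bins and no KDM6A-marked bin, with 1.65, 1.76, 1.56 and 1.94 kb of H3K4me2 in 159-1, 1014, 236L and 236R. Insm1, the neuroendocrine zinc finger factor, had 5 member bins, and its H3K4me2 covered 7.50, 8.02, 3.47 and 6.53 kb, with 3.90 kb of H3K27me3 in 236L only. Markers of immune cells moved with 236L. The summed H3K4me2 of the 13 immune markers was 8.26, 6.78, 36.9 and 4.57 kb, with 9, 9, 4 and 9 of them at 0, and Tyrobp had 8.18 kb in 236L and none elsewhere. For the 11 fibroblast and endothelial markers the sums were 5.83, 7.81, 12.8 and 13.2 kb, higher in both mutant lines. The part of these markers in the results above was not tested, and in bulk lines fewer cells of a type and less of a mark per cell cannot be told apart.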

How the data were processed

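ChIP-seq peak lists of 14 libraries were used; the 10 input libraries of the series have no list here. Alignment used Bowtie2 2.4.2 and peak calling MACS3 3.0.0a7, with mm10 as the build, per the submitters' processing notes. No threshold, control track or duplicate handling was given in the labels. The authors deposited for each broad peak a fold enrichment (a linear ratio, 1.20 to 35.2), a −log10 p-value and a −log10 q-value (at least 1.01), and a display score that was not used. They are the authors' own values and were used for ranking and filtering within single lists.

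Each list holds 1 library. Depth is unknown, so a shorter list can reflect fewer reads or weaker enrichment. H3K4me1 has its own input set, which holds both genotypes. The deposited names of the 2 control lists of H3K4me2 name the other line; labels were followed, and membership, which needs both, does not depend on it. Peaks were merged per library on chromosomes 1 to 19 and measured in 1 kb bins and within 2.5 kb of gene ends (RefSeq gene table, GRCm38.p6; Python 3.11.15, numpy 2.4.6, pandas 2.3.3). Lines, never bins or genes, were the replicates, in exact permutation and sign-flip tests. The code was tested on simulated peaks. Named genes are those with the most member bins, the widest H3K4me1 separations, the widest H3K4me2 losses, H3K27me3 in both mutant lines, and up to 3 per gene list, with the cell type markers. The members, gene lists and rules were chosen with earlier results of these data known.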

Additional observations from a re-analysis of the deposited data

How the results depend on the processing

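The shares and the H3K4me1 counts were recomputed with bins covered to 25 or 75%, peaks of −log10 q of at least 3 (which also removes KDM6A peaks and leaves 20233 members), no KDM6A base within 1 kb, gene ends within 1 kb, lists cut to equal length, and lines left out in turn. The H3K4me2 and H3K27me3 shares were taken in the mutant lines alone, so no control line was left out of them. Counts of genes were also taken with separations of 500 bp and 2 kb. Wholly covered bins, and bins that hold a start, gave 4 values chosen after the data were seen. Of 92 such values 58 were labelled the same, 34 moved and 0 reversed. The tested differences were judged by sign alone, so a fall of the H3K4me1 difference from 11.8 to 2.93 points counted as the same. Counts were held to a ratio limit, and the H3K4me2 and H3K27me3 shares to the SD of the mutant lines. Leaving out a mutant line cannot exceed that SD. Neither counts nor shares could be labelled reversed, so these labels are no measure of stability.

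The H3K4me1 difference between genotypes ranged from 2.93 (no KDM6A base within 1 kb) to 17.1 points (equal lists), and the H3K4me1 excess over KDM6A-bound bins from 10.1 to 22.7 points. The mean share of members that kept H3K4me2, 84.3%, became 70.3% without a KDM6A base within 1 kb and 88.8% within 1 kb of gene ends.

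Counts moved most. The 168 genes with more H3K4me1 became 64 at 25%, 454 at 75%, 593 with the q filter, 34 without a KDM6A base within 1 kb, 56 within 1 kb of gene ends, 326 with equal lists, 437 with a separation of 500 bp, 23 with 2 kb, and 265 to 698 with a line left out. The 70 with less became 123 at 75%, 137 with the q filter, 10 without a KDM6A base, 32 within 1 kb, 122 and 24 with separations of 500 bp and 2 kb, and 106 to 246 with a line left out. The 1390 members with H3K4me1 in the mutant lines alone became 136 without a KDM6A base and 1981 to 3066 with a line left out, and the 290 in the control lines alone became 109, 161 within 1 kb, 182 with equal lists and 428 to 1869 with a line left out. Fewer bins or lines construct part of these moves; the cause of the others was not tested. No paired analysis was possible because the labels give the lines no shared replicate numbers.

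With 2 lines per group no test can pass 0.05, the depth of the libraries is unknown, peak heights were not compared between lists, and the mutant lines have no KDM6A list.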
